A study of Homo sapiens with 4 samples.

Results

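The 50 mitosis and kinetochore genes described here are listed genes that build or control the mitotic chromosome, the kinetochore, the spindle and the dividing cell, and they were read by symbol from a table of 59652 genes. They were chosen by function, with earlier results of these data known, and all 50 were found. RNA of Huh7 and PLC cells, both human hepatocellular carcinoma (HCC) lines labelled wild type, was sequenced after culture for 48 h at 5 mM glucose (low glucose) or at 25 mM glucose (high glucose). Both lines grew in DMEM made without glucose, to which the glucose was then added, with 10% fetal bovine serum. There is 1 library for each of these 4 conditions and hence no replicate, so differences within a line could not be set against a spread between cultures.

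Mitosis is driven by cyclin B bound to the kinase CDK1, with the Polo and Aurora kinases acting beside it. Kinetochores tie the chromosomes to the microtubules of the spindle, and the spindle checkpoint holds back the anaphase-promoting complex until every chromosome is attached. Most of these mRNAs accumulate in the G2 phase and in mitosis, so that their level in a culture is widely read as a mark of dividing cells. Bulk RNA cannot tell apart fewer cells in these phases and less RNA per cell. Many promoters of this class are known to carry the cell cycle genes homology region (CHR), which the DREAM and MuvB complexes bind, and CCAAT boxes, which NF-Y binds.

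Promoter windows were taken from a table of RefSeq promoters (GRCh38.p14), in which 42 of the 50 genes were matched. Those of AURKA, FOXM1, BUB3, TTK, UBE2C, KNL1, BIRC5 and TPX2 were not analysed here. The windows of 5 genes are shown because they span the pattern of matches: MKI67 and CDC20 with both kinds of match, NCAPG with the CHR letters alone, KIF20A with CCAAT boxes alone, and CDC25C with neither in its window. Each gene was searched only at the start in that table, and other starts were not searched. The window of CDC25C lies just outside the outermost exon base of the gene (138338355), so a lack of matches there does not describe its other starts. That of KIF20A begins downstream of the outermost exon base of its gene (138178719), so a start further upstream was not searched. Each line gives the 150 bases before the annotated start, 5′ to 3′ on the strand of the gene, and none of these 5 stretches holds an annotated exon of GENCODE release 44. Capitals mark TTTGAA or TTCGAA (CHR letters) and CCAAT, searched on both strands, so that ATTGG is a CCAAT box on the other strand.
MKI67, chr10:128126424-128126573, minus strand: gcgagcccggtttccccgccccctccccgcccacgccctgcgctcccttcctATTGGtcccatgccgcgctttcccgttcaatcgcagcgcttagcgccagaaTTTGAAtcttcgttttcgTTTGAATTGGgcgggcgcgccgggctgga
CDC20, chr1:43358831-43358980, plus strand: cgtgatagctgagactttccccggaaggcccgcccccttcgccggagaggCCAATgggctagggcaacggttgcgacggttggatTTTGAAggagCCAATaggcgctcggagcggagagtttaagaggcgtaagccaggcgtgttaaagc
NCAPG, chr4:17810829-17810978, plus strand: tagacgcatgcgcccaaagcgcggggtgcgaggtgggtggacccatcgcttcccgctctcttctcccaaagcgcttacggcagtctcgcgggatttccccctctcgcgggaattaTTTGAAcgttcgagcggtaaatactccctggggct
KIF20A, chr5:138178962-138179111, plus strand: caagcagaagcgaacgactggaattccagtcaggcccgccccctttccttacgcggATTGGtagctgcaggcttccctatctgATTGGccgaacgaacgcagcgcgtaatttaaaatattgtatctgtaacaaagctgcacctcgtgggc
CDC25C, chr5:138338356-138338505, minus strand: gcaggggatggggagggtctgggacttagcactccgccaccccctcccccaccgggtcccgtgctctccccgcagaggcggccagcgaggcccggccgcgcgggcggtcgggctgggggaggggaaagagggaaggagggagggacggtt

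In MKI67 the CHR letters stood at 2 places, from 47 to 42 and from 29 to 24 bases before the start, and the second match shared 1 letter with a CCAAT box from 24 to 20 bases before it. CDC20 had CHR letters from 65 to 60 bases before the start, with CCAAT boxes on either side. The CHR letters of NCAPG lay from 35 to 30 bases before the start, and the CCAAT boxes of KIF20A from 94 to 90 and from 67 to 63 bases.

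Over the whole windows of 300 bases (250 before to 50 after the start), 31 of the 42 genes (73.8%) held CHR letters, against 16.6% of 27305 promoters. A CCAAT box was found in 32 (76.2%), against 35.7% of all promoters, and 2 or more in 21 (50%), against 11.3%. Both together occurred in 24 genes (57.1%), against 6.58%. The E2F letters TTTCCCGC and TTTGGCGC, which belong to genes of the start of replication, were rare, with a match in 2 genes (4.76%) and in 2.31% of all promoters. A match of letters is a description and not a site shown to be bound.

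The libraries held 21376239 (5 mM) and 30085303 (25 mM) counted reads for Huh7 and 30279716 and 16049686 for PLC. Depth thus went up with glucose in Huh7 cells and down in PLC cells. The 10 liver markers were all present in Huh7 cells, while in PLC cells TTR and FOXA2 had 4 reads at 5 mM and 0 at 25 mM, beside AFP and APOB at 306 and 220 FPKM at 5 mM. The 10 markers of blood, vessel, stroma and epidermis together took between 0.000135% and 0.00256% of the reads, with only PECAM1 in Huh7 cells above an FPKM of 0.5. Levels are FPKM, calculated as reads per gene length and library total. A ratio is the FPKM at 25 mM over that at 5 mM with 0.1 added to both, and its interval is the exact 95% interval of the counts, which covers counting error only. A gene was called higher or lower where its FPKM was over 0.5 in at least 1 library of the line and its ratio over 1.5 or under 0.67. The study used these cut-offs to select lncRNAs, on FPKM from StringTie. The added 0.1 and the rule of at least 1 library were set here.

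All 50 genes were higher at 25 mM than at 5 mM glucose in both lines, and in both lines all 50 counting intervals lay above 1. Among all expressed genes the interval lay above 1 in 5464 of 21864 in Huh7 cells and in 7213 of 21749 in PLC cells. Of the 18108 genes expressed in both lines, 34.3% had a ratio over 1 in both. In Huh7 cells 25 of the 50 passed 1.5 and none passed 0.67, while 14.1% of all 21864 expressed genes passed upwards and 13.7% downwards. In PLC cells 48 of the 49 genes with an FPKM over 0.5 passed 1.5 and none passed 0.67, against 26.2% and 17% of 21749 genes. NUSAP1 lay below an FPKM of 0.5 in PLC cells, and BUB3, with a ratio of 1.34, was the 1 expressed gene that did not pass. In 24 genes the ratio passed 1.5 in both lines, where 5.3% of all genes did so upwards and 3.82% downwards.

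The median log2 ratio of the 50 genes was 0.58 in Huh7 cells and 1.46 in PLC cells, beside 0.04 and 0.11 over all expressed genes. Of all expressed genes, 14.2% in Huh7 cells and 8.07% in PLC cells lay above these medians. The ratios ran from 1.10 (BUB3) to 2.31 (KIF20A) in Huh7 cells and from 1.34 (BUB3) to 6.43 (KIF20A) in PLC cells. The log2 ratios were spread more widely in PLC cells, with an SD over genes of 0.53 against 0.20. TMM scaling lowers all log2 ratios of Huh7 cells by 0.03 and all those of PLC cells by 0.16, and turns the split of all calls in PLC cells from 5709 higher and 3700 lower to 4530 higher and 4884 lower. No ratio of the 50 genes changed direction under TMM or DESeq2 scaling.

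**Figure D1:**
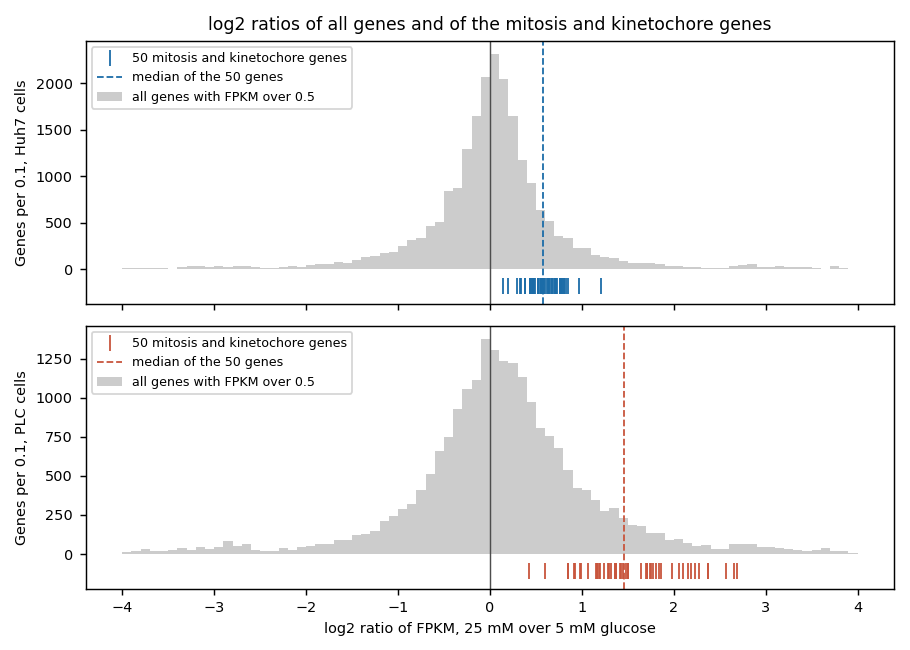
Number of expressed genes (FPKM over 0.5 in at least 1 library of the line) in each bin of 0.1 of the log2 ratio of FPKM at 25 mM over 5 mM glucose, between -4 and 4, in Huh7 cells (top) and PLC cells (bottom). Ticks under each histogram are the 50 mitosis and kinetochore genes and the dashed line is their median, 0.58 in Huh7 and 1.46 in PLC cells, and every tick lies to the right of 0.

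The 50 genes together took 0.587% of the reads (exact 95% interval 0.584 to 0.59) in Huh7 cells at 5 mM and 0.877% (0.874 to 0.88) at 25 mM. In PLC cells they took 0.179% (0.178 to 0.181) at 5 mM and 0.522% (0.519 to 0.526) at 25 mM. The share was thus 1.49 times as large in Huh7 cells and 2.91 times as large in PLC cells at 25 mM, where the highest of the 4 values is that of Huh7 cells at 25 mM and the lowest that of PLC cells at 5 mM. PLC cells at 5 mM had the lowest level of the 4 libraries in 49 of the 50 genes, with AURKA as the exception. The highest level stood in Huh7 cells at 25 mM for 41 genes and in PLC cells at 25 mM for 9. The share of all genes with the same order of libraries is not given here.

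**Figure D2:**
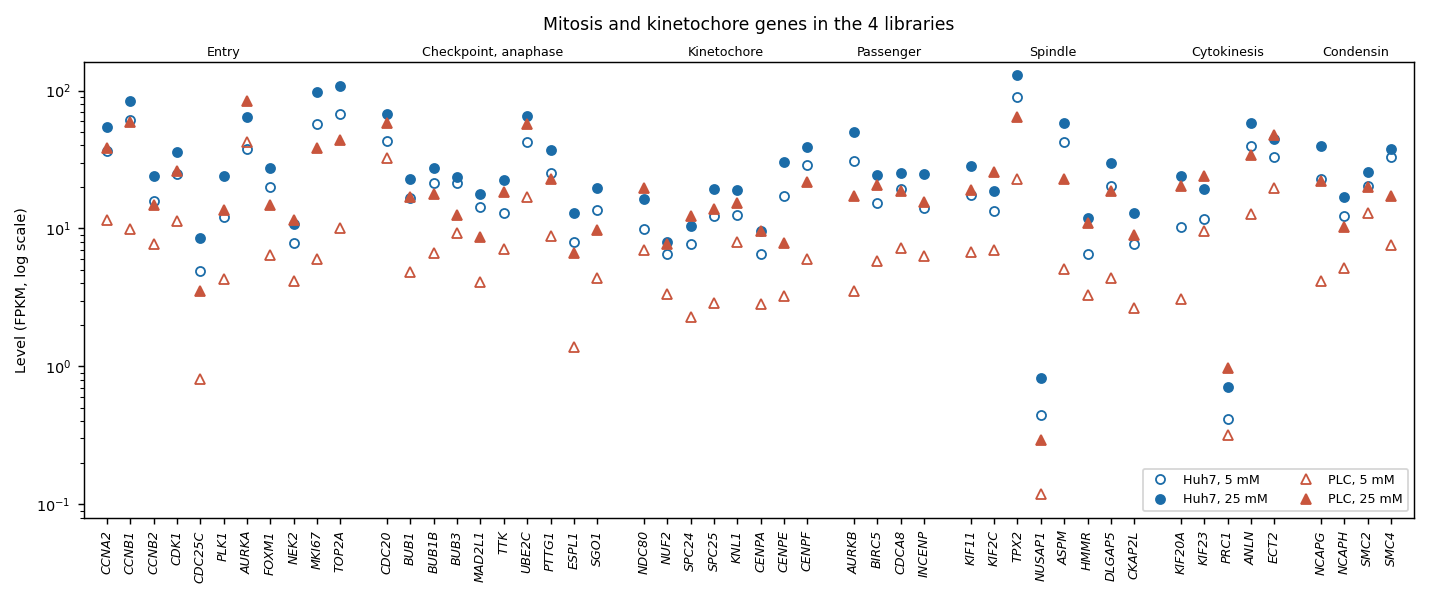
Level (FPKM, log scale) of each of the 50 genes in the 4 libraries, ordered by role: Huh7 cells as circles, PLC cells as triangles, 5 mM open and 25 mM filled, 1 library each and no error bars. Filled symbols lie above the open ones of the same line in all 50 genes, and the open triangles of PLC cells at 5 mM lie lowest in 49.

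The only glucose test that 4 libraries allow is for a change common to both lines, with the line as a block and 1 residual degree of freedom, and lines are not replicate cultures. The test was edgeR's quasi-likelihood test, with Benjamini-Hochberg adjustment over 23217 genes. KIF20A was higher at 25 mM, with a log2 fold change of 1.88 ± 0.32 (SE) and an adjusted p of 0.025. It was the only one of the 50 genes past the threshold, where 0.0646% of all genes passed upwards and 0.314% downwards. The next smallest adjusted p-values in this edgeR test were 0.0582 for PLK1, 0.0641 for MKI67, 0.075 for NCAPG and 0.0806 for TOP2A. At an unadjusted p under 0.05, 47 of the 50 genes were higher at 25 mM and none lower, against 4.14% of all genes higher, and BUB3, SMC2 and NUSAP1 were the ones outside. The count of genes past the threshold depends on the method, with 13 in DESeq2 and 29 in edgeR without the filter on low counts.

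The 11 genes of mitotic entry and the proliferating chromosome include the cyclins, their kinase and its activators. All 11 passed 1.5 in PLC cells and 6 did so in both lines, with a median ratio of 1.51 in Huh7 and 3.13 in PLC cells. MKI67, which encodes the Ki-67 protein that coats mitotic chromosomes and is the common stain for dividing cells, had FPKM levels in Huh7 cells of 57.3 at 5 mM and 97.3 at 25 mM, and in PLC cells of 5.97 and 38.2 (5 mM first, as for the genes that follow). In Huh7 cells its ratio was 1.70 (1.67 to 1.73), and the ratio of 6.31 (6.11 to 6.71) in PLC cells was second only to that of KIF20A. TOP2A, the topoisomerase that untangles sister chromatids, stood at 67.9 and 107 FPKM in Huh7 cells and at 10.1 and 43.9 in PLC cells, with ratios of 1.58 and 4.30. In both genes, PLC cells at 25 mM stayed below Huh7 cells at 5 mM.

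CCNB1, the main mitotic cyclin, was at 61.2 and 84.5 FPKM in Huh7 cells and at 9.88 and 59.2 in PLC cells. Its ratios were 1.38 (1.32 to 1.44) and 5.94 (5.51 to 6.52), so that it stayed under the threshold in Huh7 cells and had the largest gap between the lines of all 50 genes. CCNB2, the second B-type cyclin, had the smallest ratio of this group in PLC cells, with 15.9 and 24.1 FPKM in Huh7 cells, against 7.76 and 14.8 in PLC cells, and ratios of 1.51 and 1.90. CDK1, the kinase both cyclins activate, was at 24.7 and 35.6 FPKM and at 11.3 and 26.1, with ratios of 1.44 and 2.29. In PLC cells the intervals of the pair of B-type cyclins, 5.51 to 6.52 and 1.71 to 2.13, did not overlap. These intervals cover counting error only, and the share of all gene pairs without overlap is not given here.

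CDC25C, the phosphatase that removes the inhibitory phosphates of CDK1, was the gene of this group with the lowest level, at 4.92 and 8.48 FPKM in Huh7 cells, against 0.811 and 3.49 in PLC cells. Its ratio was 1.71 (1.52 to 1.96) and 3.94 (3.30 to 5.65), the wide second interval resting on 82 and 187 reads. PLK1, the Polo kinase needed for entry, spindle poles and cytokinesis, was at 12.1 and 23.9 FPKM in Huh7 cells, against 4.32 and 13.7 in PLC cells. Its ratio of 1.96 was second only to KIF20A in Huh7 cells, and it was 3.13 in PLC cells. AURKA, the spindle pole kinase, was at 37.8 and 64.1 FPKM and at 42.5 and 83.6, the only one of the 50 genes higher in PLC than in Huh7 cells at both concentrations. Its ratios of 1.70 and 1.97 were the closest between the lines among the genes with an FPKM over 0.5.

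The other genes of the group were the S-phase and G2 cyclin CCNA2, the transcription factor FOXM1, which acts on many of these promoters, and the centrosome kinase NEK2. Their ratios ran from 1.35 to 1.49 in Huh7 cells and from 2.27 to 3.26 in PLC cells, with CCNA2 just under the threshold in Huh7 cells.

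In the spindle checkpoint and anaphase group of 10 genes, 9 passed 1.5 in PLC cells and 4 in both lines. ESPL1, the separase that cuts cohesin at anaphase, had the largest ratio of the group in PLC cells. Its level was 8 and 12.9 FPKM in Huh7 cells, against 1.37 and 6.59 in PLC cells, with ratios of 1.61 and 4.55. UBE2C, the ubiquitin-conjugating enzyme of the anaphase-promoting complex, was at 42.2 and 65.8 FPKM and at 16.8 and 56.8, with ratios of 1.56 and 3.37. TTK, the kinase that starts checkpoint signalling at the kinetochore, was at 12.9 and 22.6 FPKM and at 7.07 and 18.5, and its ratio of 1.75 was the largest of the group in Huh7 cells, beside 2.59 in PLC cells.

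CDC20, the activator of the anaphase-promoting complex, differed little in level between the lines, with 43.4 and 67.5 FPKM in Huh7 cells against 32.3 and 58.3 in PLC cells. Its ratios were 1.55 (1.47 to 1.64) and 1.80 (1.69 to 1.92). BUB3, a checkpoint protein that works with BUB1 and BUBR1, had the smallest ratio of all 50 genes in both lines, at 21.5 and 23.6 FPKM and at 9.33 and 12.6. The ratios of 1.10 (1.05 to 1.14) and 1.34 (1.26 to 1.43) lay under the threshold in both lines, and the shared change by edgeR was 0.20 ± 0.21 (log2, SE; adjusted p = 0.922). Its partners BUB1 and BUB1B, which encodes BUBR1, had ratios of 1.40 and 1.30 in Huh7 cells, against 3.43 and 2.69 in PLC cells. MAD2L1, PTTG1 (securin) and SGO1 (shugoshin) lay between 1.25 and 1.47 in Huh7 cells and between 2.09 and 2.58 in PLC cells.

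All 8 genes of the kinetochore group passed 1.5 in PLC cells and 4 did in both lines. The NDC80 complex, which grips the microtubule, has 4 subunits, all among these genes. SPC24 was at 7.71 and 10.5 FPKM in Huh7 cells, against 2.29 and 12.3 in PLC cells, and SPC25 at 12.4 and 19.2 and at 2.87 and 13.8. Their ratios in PLC cells were 5.18 (4.55 to 6.34) and 4.68 (3.99 to 5.81), beside 1.35 and 1.54 in Huh7 cells. NDC80 was at 9.95 and 16.4 FPKM and at 6.95 and 19.8, and NUF2 at 6.50 and 8.04 and at 3.36 and 7.65. Their ratios in PLC cells were 2.83 (2.60 to 3.13) and 2.24 (1.97 to 2.64), beside 1.64 and 1.23 in Huh7 cells. In PLC cells the intervals of SPC24 and SPC25, the dimer on the kinetochore side, did not overlap those of NDC80 and NUF2 on the microtubule side. These intervals cover counting error only, and a split by dimer was not tested. It was not seen in Huh7 cells, where each dimer had 1 subunit on either side of the threshold.

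KNL1, the scaffold on which the BUB proteins gather, was at 12.6 and 18.9 FPKM in Huh7 cells and at 7.97 and 15.2 in PLC cells. Its ratio of 1.5 (1.44 to 1.58) lay just past the threshold in Huh7 cells, and that of 1.89 was the smallest of the group in PLC cells. CENPE, the kinetochore motor that carries chromosomes to the spindle equator, was at 17.3 and 30.2 FPKM and at 3.25 and 7.80. Its ratios of 1.75 and 2.36 made it the gene of the group with the largest ratio in Huh7 cells and with one of the smaller ones in PLC cells. The centromeric histone CENPA and the large kinetochore protein CENPF had ratios of 1.48 and 1.35 in Huh7 cells and of 3.34 and 3.57 in PLC cells.

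The chromosomal passenger complex corrects wrong attachments and later moves to the midzone, and its 4 subunits passed 1.5 in PLC cells and all but CDCA8 in Huh7 cells. AURKB, its kinase, was at 30.6 and 50 FPKM in Huh7 cells and at 3.49 and 17.3 in PLC cells, with ratios of 1.63 (1.54 to 1.74) and 4.84 (4.26 to 5.78). BIRC5 (survivin) was at 15.2 and 24.4 FPKM and at 5.79 and 20.5, with ratios of 1.60 and 3.50. CDCA8 (borealin) was at 19.3 and 25.2 FPKM and at 7.23 and 18.6, with ratios of 1.30 and 2.56. INCENP, the scaffold, was at 14.0 and 24.8 FPKM and at 6.27 and 15.6, with ratios of 1.77 and 2.46. In PLC cells the kinase gene had the largest ratio of the complex, though the lowest level of the 4 at 5 mM. In Huh7 cells INCENP had the largest ratio.

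The 8 spindle genes had the highest group median in PLC cells, a ratio of 3.27, beside 1.56 in Huh7 cells. ASPM, a spindle pole protein, was at 42.4 and 58.6 FPKM in Huh7 cells and at 5.04 and 22.8 in PLC cells, with ratios of 1.38 and 4.45, the largest gap between the lines in this group. DLGAP5, which stabilises kinetochore fibres, was at 20.2 and 29.9 FPKM and at 4.40 and 18.6, with ratios of 1.48 and 4.17. HMMR, a microtubule-binding protein of the spindle, was at 6.57 and 11.9 FPKM and at 3.28 and 10.9, and its ratio of 1.80 was the largest of the group in Huh7 cells, beside 3.25. KIF11, the motor that pushes the spindle poles apart, was at 17.4 and 28.6 FPKM and at 6.76 and 19.0, with ratios of 1.64 and 2.78. CKAP2L, a spindle protein, was at 7.71 and 12.9 FPKM and at 2.65 and 8.92, with ratios of 1.66 and 3.28. KIF2C, a motor that takes microtubules apart, and TPX2, the activator of Aurora A, had ratios of 1.39 and 1.44 in Huh7 cells, against 3.63 and 2.83 in PLC cells, and TPX2 had the highest level of the 50 genes in both Huh7 libraries (89.4 and 129 FPKM).

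NUSAP1, a protein that bundles spindle microtubules, was counted at only 34 and 90 reads in Huh7 cells, against 13 and 17 in PLC cells (0.441, 0.829, 0.119 and 0.294 FPKM). On chromosome 15, from 41320794 to 41381050 in hg38, 81.4% of its exon bases in the table are also exon bases of AC087721.2 on the same strand, a gene with 0 reads in all 4 libraries. PRC1, which bundles the microtubules of the midzone, had 49, 117, 53 and 86 reads (0.415, 0.704, 0.317 and 0.970 FPKM), and 61.9% of its exon bases are shared with AC068831.6 on the same strand. AC068831.6 had 137, 328, 118 and 169 reads, with ratios of 1.63 and 2.44 beside 1.56 and 2.57 for PRC1. The ratios of NUSAP1 were 1.72 (1.25 to 2.88) and 1.80 (1.13 to 5.52). How reads in shared exons were counted is not given in the sources used here, so the levels of both genes are uncertain. SMC4, FOXM1, SGO1, PLK1 and BUB1B share between 10.2% and 22% of their exon bases with another gene. Without NUSAP1 and PRC1 the median log2 ratio was 0.57 in Huh7 and 1.49 in PLC cells.

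Among the 5 cytokinesis genes, all passed 1.5 in PLC cells and 3 in both lines. KIF20A, a motor of the spindle midzone that is needed for the last cut between the daughter cells, had the largest ratio of all 50 genes in both lines. It was at 10.3 and 24.0 FPKM in Huh7 cells and at 3.06 and 20.2 in PLC cells, and its ratios were 2.31 (2.15 to 2.52) and 6.43 (5.87 to 7.46). KIF23, a subunit of centralspindlin at the midzone, was at 11.8 and 19.4 FPKM and at 9.61 and 24.1, with ratios of 1.63 and 2.49. ECT2, the exchange factor that turns on RhoA at the cleavage furrow, was at 32.7 and 44.9 FPKM and at 19.7 and 47.9, with ratios of 1.37 and 2.43. The furrow protein ANLN had ratios of 1.47 and 2.67. Apart from KIF20A, the ratios of this group in PLC cells lay between 2.43 and 2.67.

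The 4 condensin genes, whose products fold chromosomes into compact rods, had the lowest group medians, with ratios of 1.32 in Huh7 and 2.12 in PLC cells. NCAPG, a subunit of condensin I, was at 22.8 and 39.3 FPKM in Huh7 cells and at 4.18 and 22.0 in PLC cells, with ratios of 1.72 (1.64 to 1.81) and 5.16 (4.79 to 5.78). SMC2, a core ATPase of both condensins, was at 20.4 and 25.7 FPKM and at 13.0 and 19.9, with ratios of 1.26 (1.2 to 1.32) and 1.52 (1.44 to 1.62). SMC4, the other core ATPase, and NCAPH of condensin I had ratios of 1.15 and 1.38 in Huh7 cells, against 2.25 and 1.99 in PLC cells. Of the exon bases of NCAPG, 33.7% lie in exons of LCORL on the other strand, and whether strand was used in counting is not given in the sources used here. NCAPG was the only one of the 4 past 1.5 in Huh7 cells.

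The ratio was larger in PLC than in Huh7 cells in all 50 genes. With 1 library per condition this difference of responses could not be tested, and it is given with its counting interval. The log2 ratio of PLC cells exceeded that of Huh7 cells with an interval above 0 in all 49 genes expressed in both lines, where 30.8% of 16097 genes with more than 3 reads in every library did so. For NUSAP1 the interval included 0. The median difference was 0.97 (log2) over these 49 genes and 0.07 over all 16097. It ran from 0.21 (0.12 to 0.31) in AURKA and 0.22 (0.10 to 0.34) in CDC20 to 1.98 (1.70 to 2.27) in SPC24 and 2.12 (1.98 to 2.25) in CCNB1. Across the 50 genes the 2 log2 ratios of a gene had a Pearson r of 0.384 and a Spearman rho of 0.264, which is a description over genes that share 4 libraries.

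Levels also differed between the lines. The same edgeR fit takes the 5 mM and 25 mM libraries of a line as its replicates, with 1 residual degree of freedom. Its p-values for the lines hence do not measure a spread between cultures. In this fit, 35 of the 50 genes were lower in PLC than in Huh7 cells and none was higher, where 21.8% of all genes were lower and 21.1% higher in PLC cells. The median log2 fold change of PLC against Huh7 cells was -1.04. The largest differences by edgeR were those of AURKB (-2.31 ± 0.34, SE; adjusted p = 0.000104), MKI67 (-2.30 ± 0.34; adjusted p = 0.000125) and ASPM (-2.21 ± 0.32; adjusted p = 0.000105). The fold of Huh7 over PLC cells was smaller at 25 mM than at 5 mM in all 50 genes, which restates their larger ratios in PLC cells. Its median was 2.87 at 5 mM and 1.48 at 25 mM. For MKI67 it went from 9.60 to 2.55, for AURKB from 8.77 to 2.89 and for CCNB1 from 6.20 to 1.43.

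At both concentrations 41 genes were higher in Huh7 cells, a count given without its share over all genes. In NEK2, NDC80, SPC24, CENPA, KIF2C, KIF23, PRC1 and ECT2 the order of the lines turned between 5 mM and 25 mM, with CENPA at 9.62 FPKM in both lines at 25 mM. Set against Huh7 cells at 5 mM, PLC cells at 25 mM were higher in 25 genes and lower in the other 25. The order of the genes by level was kept more closely in Huh7 cells, with a Spearman rho between 5 mM and 25 mM of 0.967 against 0.807 in PLC cells.

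Other genes of mitosis behaved less evenly. A list of 93 further genes of mitotic control, centromere, spindle, condensin and cohesin had 23 genes past 1.5 in Huh7 cells, 62 past it in PLC cells, 22 past it in both lines and none past 0.67. The ratio was over 1 in 88 and 84 of the 93. Their median log2 ratio was 0.40 in Huh7 and 0.97 in PLC cells, between that of the 50 genes and that of all genes. No gene of this list passed the edgeR test, which says little where only 0.0646% of all genes passed upwards. At an unadjusted p under 0.05 in that test 49 were higher, against 4.14% of all genes. The further spindle and cytokinesis genes had medians of 0.59 and 1.26, while the further condensin and cohesin genes had 0.32 and 0.56.

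The largest mean log2 ratios among the 93 were those of FAM83D, GTSE1 and HJURP. FAM83D, which brings a kinase to the spindle, was at 32.3 and 59.7 FPKM in Huh7 cells and at 5.72 and 32.7 in PLC cells, with ratios of 1.85 and 5.63. GTSE1, a microtubule-binding protein of G2 and mitosis, had ratios of 1.63 and 5.74 (11, 18, 2.57 and 15.2 FPKM). HJURP, the chaperone that loads the centromeric histone, had ratios of 1.52 and 5.30 (20.2, 30.8, 1.89 and 10.5 FPKM). In PLC cells all 3 ratios lay below those of MKI67 (6.31) and KIF20A (6.43).

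The smallest were those of CDC16, PDS5A and MIS12. CDC16, a core subunit of the anaphase-promoting complex, was at 16.7 and 13.7 FPKM in Huh7 cells and at 37.0 and 29.1 in PLC cells, with ratios of 0.821 (0.763 to 0.881) and 0.785 (0.742 to 0.828). PDS5A, a regulator of cohesin, had ratios of 0.917 and 0.757 (29.3, 26.8, 34.1 and 25.8 FPKM). MIS12, a kinetochore base subunit, had ratios of 1.07 and 0.870 (7.26, 7.81, 11.6 and 10.1 FPKM). None of the 3 passed the thresholds.

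Further subunits of the same complexes were looked up after their values were seen. ANAPC1, CDC23 and CDC27 of the anaphase-promoting complex had ratios of 1.05, 1.39 and 1.11 in Huh7 cells, against 1.04, 0.973 and 1.19 in PLC cells, beside 1.80 for its activator CDC20 and 3.37 for its enzyme UBE2C in PLC cells. The cohesin core genes SMC1A, SMC3 and RAD21 had ratios between 1.16 and 1.23 in Huh7 cells and between 1.18 and 1.33 in PLC cells. NCAPD2, the further subunit of condensin I, had ratios of 1.64 and 4.02, next to 5.16 for NCAPG.

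A list of 38 DNA replication genes, which act in S phase, had 11 genes past 1.5 in Huh7 cells, all of them among the 33 past it in PLC cells, and none past 0.67. The median log2 ratios were 0.42 and 1.22. Of all expressed genes, 14.1% and 26.2% passed 1.5 in Huh7 and PLC cells, and 5.3% of those expressed in both lines passed it in both. No replication gene passed the edgeR test, which says little where only 0.0646% of all genes passed upwards. At an unadjusted p under 0.05 in that test 29 were higher, against 4.14% of all genes.

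The ratios can be read beside the promoter matches shown above. In PLC cells the 31 genes with CHR letters in their window had a median ratio of 2.69 and the 11 without a median of 3.63, and in Huh7 cells the values were 1.51 and 1.47. KIF20A, CCNB1 and SPC24, with ratios of 6.43, 5.94 and 5.18 in PLC cells, are among those without. For CCAAT boxes the medians in PLC cells were 3.19 with and 2.68 without a match. These medians are descriptions without a test. They rest on the start and the letters searched, so a gene counted as without may hold other letters or a match at another start. For PLK1, NUF2, NUSAP1, HMMR, KIF23, PRC1 and SMC4, all 150 bases before the start lay in annotated exons, those of the gene itself among them.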

How the data were processed

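RNA was depleted of rRNA and made into directional libraries by the authors, who deposited a table of counts, the number of reads per gene without normalization. The submitters' processing notes name HISAT2, featureCounts and hg38. Versions, annotation release and strand setting are not given in the sources used here. Of 59657 data lines, 5 of a broken entry for ANK2 were left out. Each of the 4 groups, taken from the labels, holds 1 library.

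FPKM, ratios with 0.1 added and exact (Clopper-Pearson) 95% intervals without it were calculated from the counts (Python 3.11.15, scipy 1.17.1). Shared glucose and line differences were tested in 1 fit with edgeR 4.0.16 (R 4.3.3, filterByExpr, TMM, quasi-likelihood test, Benjamini-Hochberg), and DESeq2 1.42.0 was an alternative. Exon overlap was computed from the exons in the table, and the scripts were tested on simulated data. Other pseudocounts, filters, scalings, thresholds and corrections for gene length and GC content were tried.

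The members and lists were chosen with earlier results of these data known. Values in every library are given for MKI67, TOP2A, CCNB1, CDK1, PLK1 and AURKB and, in each role group, for the genes with the highest and lowest mean log2 ratio, the largest difference between lines, and up to 5 past the thresholds in both lines. From the other mitosis genes, the 3 highest and 3 lowest were named.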

Additional observations from a re-analysis of the deposited data

How the results depend on the processing

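The count of genes past a ratio of 1.5 stayed between 21 and 25 in Huh7 cells and between 46 and 49 in PLC cells under pseudocounts of 0 and 1, other filters on low values and TMM or DESeq2 scaling, with 0 lower in each. At a ratio over 2 it was 1 (KIF20A) for Huh7 and 42 for PLC cells. The median log2 ratio in PLC cells fell from 1.46 to 1.30 with TMM scaling and to 1.33 with DESeq2 size factors, the size of the shift these scalings give every gene. With a pseudocount of 0 or 1, or the trend with gene length or GC content removed, it lay between 1.34 and 1.5, and for Huh7 all alternatives gave between 0.54 and 0.58. The 37 genes with under 5% of exon bases shared, an alternative chosen after seeing the data, gave 0.56 and 1.45. The number of genes past the edgeR threshold for a shared change was 1, and it was 29 without the filter on low counts, 13 with DESeq2 (2 genes without an adjusted p) and 0 without the cell line block, where 1 gene had an unadjusted p under 0.05. The cause was not tested. Without glucose in the fit, 7 instead of 35 genes were lower in PLC cells. No ratio of a named gene was reversed, with 167 values inside and 79 outside the counting interval of the reported ratio. With 1 library per condition, no library could be left out within a line, and depth limits NUSAP1 and PRC1 most.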

Other observations

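Of the 10 liver markers, 8 had a ratio over 1 in Huh7 cells, and 7 of the 8 with an FPKM over 0.5 did in PLC cells. Of all expressed genes, 11745 of 21864 in Huh7 cells and 12289 of 21749 in PLC cells had a ratio over 1. The counting interval lay above 1 for 7 markers in each line, against 5464 and 7213 of these genes. A ratio of 1.5 was passed by 2 markers in Huh7 cells and by 3 in PLC cells, against 14.1% and 26.2% of all expressed genes. AFP, a fetal liver protein, was at 1256 and 1434 FPKM in Huh7 cells and at 306 and 1011 in PLC cells, with ratios of 1.14 and 3.30. SERPINA1, a secreted protease inhibitor, had ratios of 1.11 and 2.34, and APOA1, the main protein of HDL, 1.52 and 3.46, the latter on 26 and 52 reads. ALB and APOB, the albumin and LDL protein genes, had ratios of 1.01 and 0.888 in Huh7 cells, against 1.38 and 1.05 in PLC cells. TF (transferrin) had ratios of 1.61 and 1.2, and HNF4A, a liver transcription factor, had 1.07 and 1.1. TTR and FOXA2, with 4 reads or fewer in PLC cells, had ratios of 1 and 0.96 in Huh7 cells. Over the 10 liver markers the median log2 ratio was 0.12 in Huh7 cells, and over the 8 with an FPKM over 0.5 in PLC cells it was 0.36.

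The 50 genes had a median exon GC content of 42% (34.8% to 58.8%) against 46.4% over expressed genes, and a median length of 4193 bases against 3075. Across the 50 genes the Pearson r of the log2 ratio with GC content was 0.275 in Huh7 and 0.172 in PLC cells, a description over genes that share libraries.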
